A study of Mus musculus with 36 samples.

Results

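This report describes the difference between arrays labelled tumor and arrays labelled spleen in T cells that carried a short hairpin RNA against Egr2. The study used CD8 T cells from OT-I mice, whose transgenic T cell receptor recognises an ovalbumin peptide. The cells were transduced with an shRNA, transferred into mice bearing B16 melanoma, and later purified from tumors or from spleens. Total RNA from these cells was hybridised to Affymetrix 3' arrays with a single label. The 6 transductions were a control shRNA against LacZ, a bacterial gene absent from mouse cells, and shRNAs against Ppp2r2d, Egr2, Ptpn2, Arhgap5 and Alk, the last 5 chosen by the submitters as regulators of how T cells distribute between tumor and spleen. Of the 36 arrays, 6 carried the Egr2 hairpin, 3 labelled tumor and 3 labelled spleen, and they were chosen by these labels alone. All groups share the OT-I receptor, the transduction, the transfer and the tumor-bearing host. The number of hairpins per gene, any pooling of animals, the age of the mice and the time after transfer are not stated in the labels. The labels do not tie the 3 arrays of a group to separate animals, and the p-values therefore measure spread between arrays, which may be technical.

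Egr2 is a zinc finger transcription factor of the early growth response family, induced in T cells by signalling through the antigen receptor. Together with its relative Egr3 it is known for restraining T cell activation and for its part in anergy, the unresponsive state that follows antigen recognition without costimulation. Nab1 and Nab2 are co-repressors that bind Egr factors, and Nr4a1 to Nr4a3 are orphan nuclear receptors induced by the same receptor signals.

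The tissue labels and the genes of the tumor did not point the same way. Tyrp1, a melanosome enzyme of pigment cells such as B16, read 4.70, 4.90 and 5.79 on the log2 scale on arrays 1, 2 and 3 labelled spleen, and -2.08, -1.18 and -2.94 on arrays 1, 2 and 3 labelled tumor. The melanocyte antigen gene Mlana read 4.23, 4.45 and 5.51 against -2.85, -1.17 and -2.78, in the same order. So the pigment genes were high on every array labelled spleen and low on every array labelled tumor, without overlap. Of 13 measured melanocyte markers, 10 were lower in labelled tumor and 0 higher, where 15.9% of all 18193 genes tested were lower. Their summed level, the sum of 2 to the power of the deposited value, was 137 to 295 on the labelled spleen arrays and 13.1 to 17.1 on the labelled tumor arrays. Genes of T cell identity were present on all 6 arrays. Cd3e, a subunit of the T cell receptor complex, read 6.94, 6.67 and 6.73 against 6.69, 7.35 and 6.29, and the CD8 alpha chain gene Cd8a read 6.79, 6.58 and 6.45 against 6.44, 7.21 and 6.33. Their groups overlapped. Of 10 T cell identity genes 1 was called (10%, beside 26.4% of all genes). It was Cd8b1 (1.00 ± 0.27, SE, limma adjusted p = 0.00487, and 0.112 in a fit of the 6 arrays alone). Throughout, samples are therefore called labelled spleen and labelled tumor, and every direction follows the labels as deposited.

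Array 2 labelled tumor stood apart from the other 5 in its low values. Its lowest value was -1.45, against -4.32 to -3.42 on the others, and 0.132% of its genes lay below -1.38, against 33.2 to 37.6%. Its 99th percentile was 7.49, against 6.69 on array 1 and 6.46 on array 3 with the same label. The difference between 3' and 5' probe sets for Gapdh, a measure of RNA integrity and labelling, was 0.25 to 0.83 on labelled spleen and 0.95 to 1.05 on labelled tumor, and did not overlap. Its part in the results was not tested. Medians of the 36 arrays ran from -0.48 to -0.23, and the arrays farthest from their nearest neighbour by correlation were Ptpn2 array 1 labelled tumor (0.905) and the 3 LacZ arrays labelled spleen (0.968 to 0.975). Leaving out either left the count of genes called with the Egr2 hairpin at 5376 and 5291, against 4801 with all arrays.

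**Figure D1:**
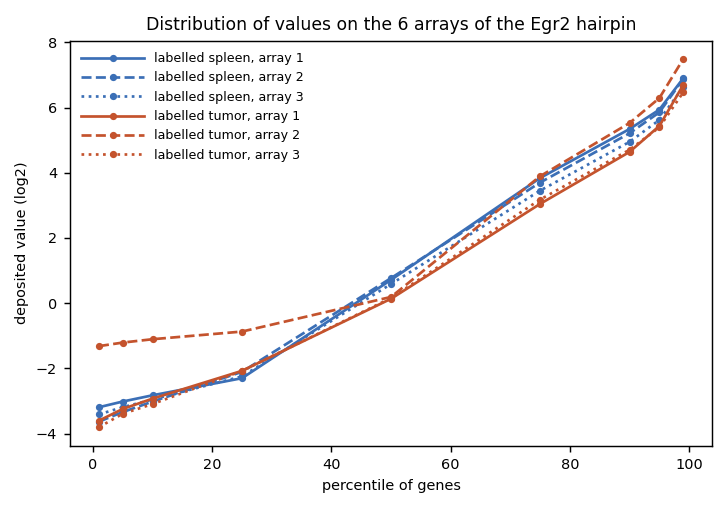
Percentiles of the deposited log2 values over 18193 genes on each of the 6 arrays of the Egr2 hairpin, with 1 line per array. Array 2 labelled tumor (dashed) starts at -1.32 at the 1st percentile, against -3.60 and -3.80 on the other arrays labelled tumor, and lies above them at the 99th.

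The hairpin's own target was examined next. Egr2 read 3.94, 4.08 and 3.89 on labelled spleen and 3.49, 4.73 and 3.54 on labelled tumor. In labelled spleen those 3 values lay below all 3 LacZ arrays, which ran from 4.40 to 5.64, and the difference from LacZ was -1.19 ± 0.55 (SE, limma adjusted p = 0.207). In labelled tumor the Egr2 arrays ran from 3.49 to 4.73 and the LacZ arrays from 3.43 to 4.72, and the difference was -0.08 ± 0.55 (adjusted p = 0.952, limma). The groups overlapped in labelled tumor and not in labelled spleen. Neither difference passed the threshold of an adjusted p under 0.05 in the deposited values. Without Ptpn2 array 1 labelled tumor, the labelled spleen difference was -1.19 ± 0.36 (SE, adjusted p = 0.055, limma). A further Egr2 probe set gave -1.43 in labelled spleen (adjusted p = 0.0219, limma) and 0.09 in labelled tumor. Between labels, Egr2 differed by -0.05 ± 0.55 (adjusted p = 0.948, limma) with its own hairpin, and this value turned positive after quantile normalization (0.11), after cyclic loess (0.09) and as a mean over probe sets (0.07). The same difference was -1.16 with LacZ, -0.97 with the Ppp2r2d hairpin, -2.55 with Ptpn2, -1.68 with Arhgap5 and -1.60 with Alk. With Ptpn2 the arrays labelled tumor spread from 0.36 to 3.79.

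Across all genes, 4801 of 18193 (26.4%) differed between the labels with the Egr2 hairpin at a limma adjusted p under 0.05, 1910 higher in labelled tumor (10.5%) and 2891 lower (15.9%). In 4399 genes (24.2%) the call came with 3 arrays of each label that did not overlap. The median difference over all genes was 0.25. It moved to 0.02 after quantile normalization, to -0.04 after cyclic loess and to -0.16 without array 2 labelled tumor, so small rises lean on the scaling. Without array 2 labelled tumor 1012 genes rose and 3617 fell, so that the share of rises went from 39.8 to 21.9%. Fitted on the 6 arrays alone, 2840 genes were called. Because these are bulk samples, fewer cells of a type and less RNA per cell cannot be told apart. The gene lists were drawn up with earlier results of these data known. Their counts and medians are therefore descriptions, not tests.

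**Figure D2:**
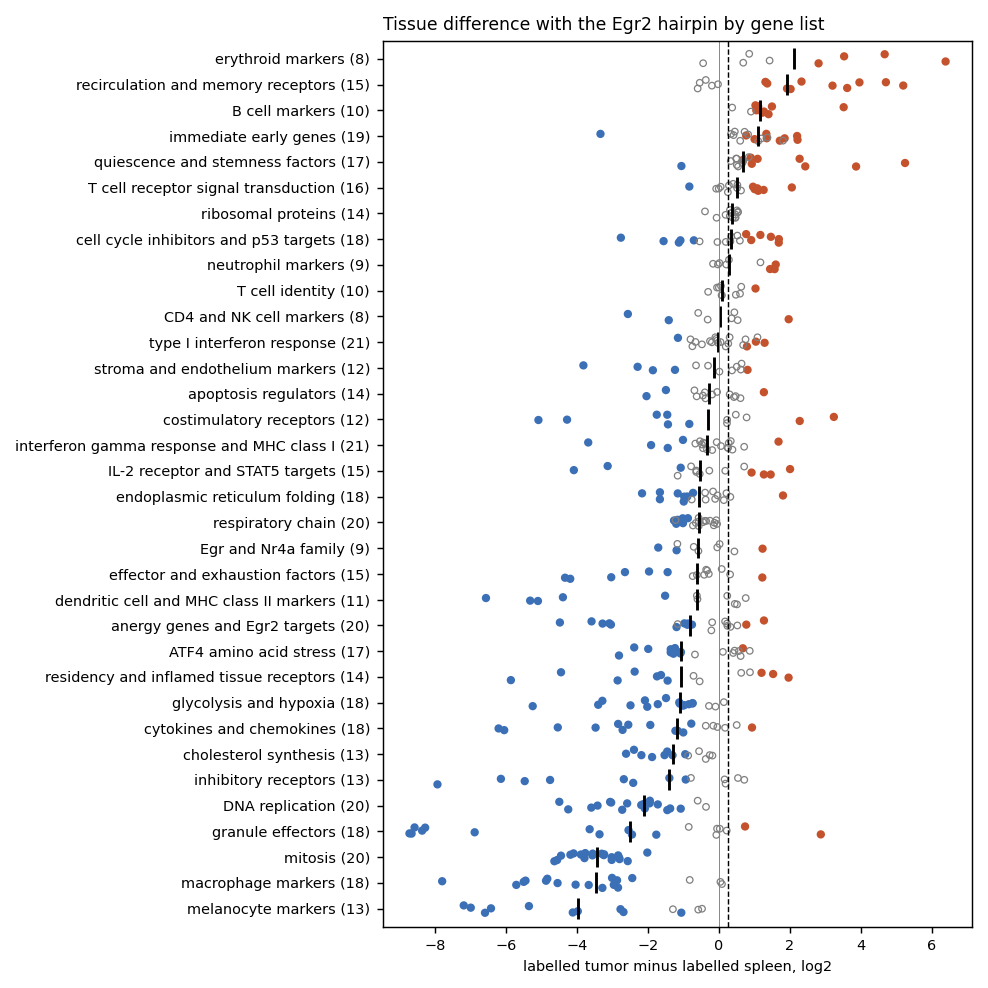
Each point is the difference of 1 gene, labelled tumor minus labelled spleen in log2, in the list named on the vertical axis with its number of measured genes. Filled points passed a limma adjusted p of 0.05, black bars are list medians and the dashed line is the median of all genes, 0.25. The medians of the melanocyte, macrophage and mitosis lists lie farthest left, and those of recirculation receptors and erythroid markers farthest right.

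The largest falls from labelled spleen to labelled tumor were in the granzymes, the serine proteases that killer lymphocytes store in their granules. Granzymes C to G are close paralogs encoded in a cluster on chromosome 14 beside Gzmb, and probes of the array can pick up more than 1 of them, so their separate values are uncertain. Their promoters are shown because the 5 genes moved together and share most of their upstream sequence. The windows are the 120 bases before the annotated start (RefSeq, GRCm38.p6, minus strand, written 5′ to 3′), and the capitals mark a match to TGANNTCA, the palindrome of the cyclic AMP response element with 2 free letters, searched on both strands.
Gzmc, chr14:56234658-56234777: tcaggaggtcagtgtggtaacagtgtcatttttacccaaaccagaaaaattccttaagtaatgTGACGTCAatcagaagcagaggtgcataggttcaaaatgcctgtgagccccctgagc
Gzmd, chr14:56132594-56132713: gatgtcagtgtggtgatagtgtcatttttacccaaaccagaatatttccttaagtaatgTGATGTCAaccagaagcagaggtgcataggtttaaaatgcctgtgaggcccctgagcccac
Gzme, chr14:56120626-56120745: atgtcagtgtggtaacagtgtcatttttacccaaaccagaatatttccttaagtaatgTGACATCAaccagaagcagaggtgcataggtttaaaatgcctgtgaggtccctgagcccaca
Gzmf, chr14:56211408-56211527: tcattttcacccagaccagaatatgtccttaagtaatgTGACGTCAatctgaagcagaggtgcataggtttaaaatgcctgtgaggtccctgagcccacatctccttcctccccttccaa
Gzmg, chr14:56159580-56159699: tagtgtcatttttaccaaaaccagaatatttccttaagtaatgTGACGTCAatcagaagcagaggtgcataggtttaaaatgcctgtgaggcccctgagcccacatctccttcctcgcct
Over 250 bases before the start, the 10 pairs among these 5 promoters were 83.3 to 95.2% identical in 230 to 251 aligned columns, against 53.1 to 56.3% in 151 to 228 columns for each of them with Gzmb. The motif occurred in 5 of 5 of these promoters and in 1452 of the 14452 promoters of tested genes held in the table (10.05%). It was chosen after these promoters had been read, and a match is a description of letters, not of a bound site.

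Gzmc read 7.46, 7.17 and 7.06 on labelled spleen and -2.42, -0.75 and -1.32 on labelled tumor. Each labelled spleen value lay above the 99th percentile of its array and no labelled tumor value exceeded -0.75. The difference was -8.72 ± 0.32 (SE, limma adjusted p = 7.23e-19), the largest fall of all genes tested. Gzmd read 5.87, 5.22 and 5.15 against -3.92, -1.42 and -4.16, a difference of -8.58 ± 0.52. Gzme (-8.66 ± 0.50), Gzmf (-8.37 ± 0.40) and Gzmg (-6.89 ± 0.46) fell likewise, with limma adjusted p from 1.85e-16 to 6.41e-13. Levels of Gzmd, Gzme, Gzmf and Gzmg in labelled tumor lay near the lowest values of each array, and with every value below -1.38 set to -1.38 their differences were -6.80, -7.12, -7.26 and -5.75. Array 2 labelled tumor was the highest of its group for all 5 genes.

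Granzyme B, the best known of these proteases, fell less far. Gzmb read 7.43, 7.41 and 6.89 against 2.95, 4.49 and 3.36 (-3.65 ± 0.31, SE, limma adjusted p = 8.42e-11). Prf1, which encodes the pore-forming protein perforin, fell by 2.45 ± 0.27 on the log2 scale, and Gzmk changed by -2.55 ± 0.30. Serpinb9 and Serpinb9b, intracellular inhibitors of granule proteases, also fell. Serpinb9b read 6.26, 6.30 and 6.39 against -2.85, -0.82 and -2.23 (-8.28, and -7.51 with the floor). Granzyme M went the other way. Gzmm read 2.15, 2.72 and 1.96 against 4.78, 5.67 and 4.98 (2.87 ± 0.30, limma adjusted p = 5.99e-09), with every labelled tumor array above every labelled spleen array. Gzma read 5.85, 5.63 and 5.45 against 5.33, 6.45 and 4.94, overlapping groups (-0.08 ± 0.39, limma adjusted p = 0.891). Of 18 granule genes measured, 11 fell and 2 rose, with a median of -2.50 and 72.2% called, beside 26.4% of all genes. The second rise was that of Ctsw, a lymphocyte cathepsin, which lost its call without array 2 labelled tumor or array 3 labelled spleen (adjusted p up to 0.211, limma) and with the replicate block (0.0668).

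**Figure D3:**
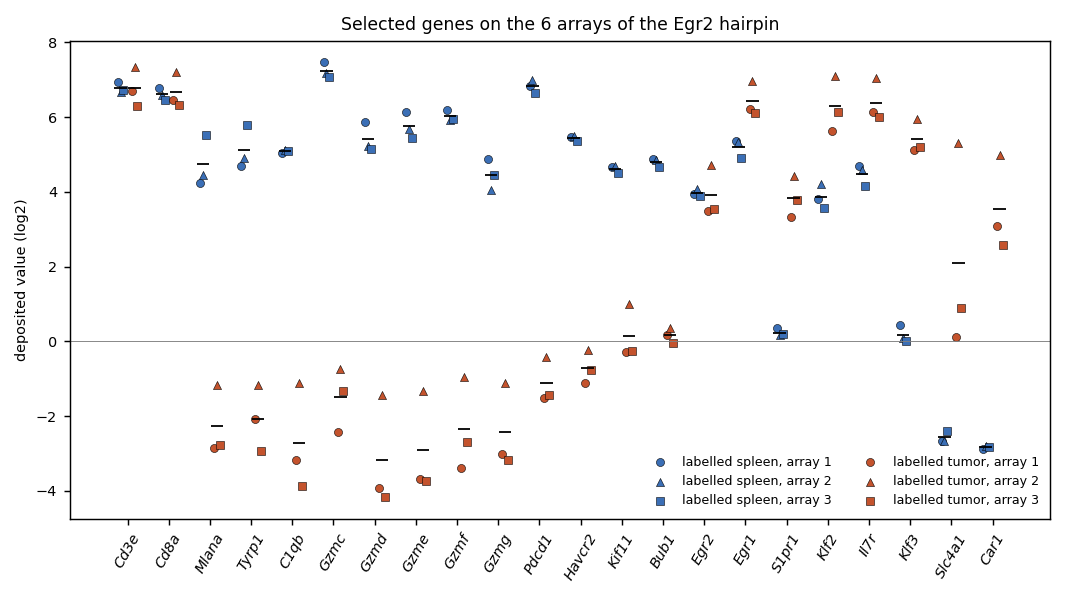
Deposited log2 values of 22 genes on the 6 arrays of the Egr2 hairpin, labelled spleen at the left and labelled tumor at the right of each gene, with bars at group means and marker shapes for arrays 1 to 3. Granzyme, pigment, inhibitory receptor and mitosis genes are high in labelled spleen, Klf3, Klf2 and S1pr1 are high in labelled tumor, and Cd3e, Cd8a and Egr2 overlap.

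Inhibitory receptors dampen T cell signalling and build up under persistent antigen. Of 13 measured, 8 were lower in labelled tumor and 0 higher (61.5% called, beside 26.4% of all genes). Their median was -1.40. Pdcd1, which encodes PD-1, read 6.84, 6.98 and 6.64 against -1.52, -0.41 and -1.42 (-7.94 ± 0.30, SE, limma adjusted p = 1.49e-18). Havcr2, which encodes TIM-3, read 5.46, 5.50 and 5.37 against -1.12, -0.24 and -0.76 (-6.15 ± 0.32, adjusted p = 2.02e-15, limma). The 3 arrays of each label were separate by more than 5 log2 units in both genes. Lag3, a receptor for MHC class II, fell by 5.48 ± 0.28 and Entpd1, the ectonucleotidase CD39, by 2.68 ± 0.28 on the log2 scale. Cd200, an immunoglobulin superfamily ligand, changed by -4.76 ± 0.47. Costimulatory receptors were mixed, with 6 falls and 2 rises among 12 (66.7% called). Tnfrsf4, which encodes OX40, read 5.95, 6.03 and 5.77 against 0.43, 1.01 and 1.04, and Tnfrsf9, which encodes 4-1BB, read 6.51, 6.60 and 6.33 against 2.33, 2.19 and 2.07. The rises were Cd226, a receptor for nectin-family ligands, at -2.53, -2.84 and -3.08 against 0.78, -0.12 and 0.60 (3.23 ± 0.35, limma adjusted p = 1.37e-08, and 1.80 with the floor), and Tnfrsf25, the receptor DR3 (2.27 ± 0.35). No array of either label overlapped the other in these 4 receptors.

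Secreted factors followed the granule genes, with 12 falls and 1 rise among 18 (72.2% called, beside 26.4% of all genes). Their median was -1.20. Ccl1, a chemokine ligand of Ccr8, read 4.22, 3.84 and 3.46 against -2.77, -1.03 and -3.32 (-6.21 ± 0.41, SE, limma adjusted p = 5.29e-13). Ccl9, an inflammatory chemokine, ran from 3.88 to 4.76 in labelled spleen and from -2.33 to -0.68 in labelled tumor. Every labelled spleen array was above every labelled tumor array in both. Il3 (-4.54 ± 0.51, and -3.04 with the floor) and Csf2 (-2.56 ± 0.36), growth factors for myeloid cells, fell, as did Il10 (-3.48 ± 0.47, and -2.09 with the floor), a cytokine that limits inflammation, and Il2 (-2.84 ± 0.42), the T cell growth factor. Ifng, a main effector cytokine of CD8 T cells, read 6.78, 6.69 and 6.45 against 5.29, 6.24 and 5.36 (-1.01 ± 0.25, limma adjusted p = 0.00302, and 0.108 in a fit of the 6 arrays alone). Tnf was not called (0.17 ± 0.33, limma adjusted p = 0.701). The rise was Ccl5 (0.93 ± 0.29, limma adjusted p = 0.0154), which lost its call without array 2 labelled tumor or array 3 labelled spleen (up to 0.127).

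In the family of Egr2, 1 of 9 Egr, Nab and Nr4a genes rose and 2 fell, with a median of -0.58. That is 33.3% called, beside 26.4% of all genes. Egr1, an immediate early relative of Egr2, read 5.37, 5.34 and 4.91 against 6.22, 6.97 and 6.10, and rose by 1.23 ± 0.29 (SE, limma adjusted p = 0.00152). Egr3 read 3.65, 3.46 and 3.80 against 2.27, 2.97 and 2.08, and differed by -1.20 ± 0.37 (limma adjusted p = 0.0154). Both genes had no overlap between labels, but Egr3 lost its call without array 3 labelled spleen, array 1 labelled tumor or array 3 labelled tumor (up to 0.0694), as a mean over probe sets (0.114) and on the 6 arrays alone (0.0517). Nab2 read 3.12, 3.39 and 3.07 against 1.42, 1.79 and 1.22 (-1.71 ± 0.30, limma adjusted p = 3.93e-05). Nr4a1 (0.43 ± 0.31), Nr4a2 (-0.71 ± 0.35), Nr4a3 (-1.17 ± 0.74), Egr4 (0.02 ± 0.25) and Nab1 (-0.58 ± 0.28) were not called. In Nr4a2 and Nr4a3 the 3 labelled tumor arrays spread from 4.55 to 6.42 and from 4.24 to 6.54, with array 1 lowest and array 2 highest.

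Genes tied to anergy or reported as bound by Egr2 were lower in labelled tumor in 10 of 20 and higher in 2. Their median was -0.82, and 60% were called, beside 26.4% of all genes. The count of falls was 6 without array 1 labelled tumor, 7 with the replicate block and 5 on the 6 arrays alone. Nrn1, which encodes the surface protein neuritin, read 5.50, 5.50 and 5.38 against 0.90, 0.94 and 1.08 (-4.49 ± 0.29, SE, limma adjusted p = 2.28e-13). Rnf128, the ubiquitin ligase GRAIL, read 1.21, 1.47 and 1.11 against -2.33, -0.79 and -2.23 (-3.05 ± 0.39). The labels did not overlap in either gene. Ndrg1 (-3.59 ± 0.32), a T cell clonal anergy factor, Nrp1 (-3.28 ± 0.26), a semaphorin co-receptor, and Sema7a (-3.09 ± 0.29), a membrane semaphorin, fell as well. Dgka, the diacylglycerol kinase that removes a second messenger of the T cell receptor, read 5.36, 5.48 and 5.25 against 6.39, 7.21 and 6.28 (1.26 ± 0.26, limma adjusted p = 0.0003). The other rise, Nfatc2 (0.77 ± 0.27, limma adjusted p = 0.0343), was lost without any 1 of the 3 labelled spleen arrays or array 2 labelled tumor (up to 0.226) and with the replicate block (0.0904). Of the ligases Cblb and Itch, differences were 0.23 ± 0.29 and 0.17 ± 0.34, and neither was called. The letters GCGNGGGCG, the core of the EGR motif, were found on either strand in 116 of 1471 promoters of genes higher in labelled tumor (7.89%), in 186 of 2325 promoters of genes lower there (8%) and in 1076 of all 14452 (7.445%), in windows of 250 bases.

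Among factors of effector cells, 6 of 15 fell and 1 rose, with a median of -0.63 (46.7% called, beside 26.4% of all genes). Prdm1, which encodes Blimp-1, read 4.35, 4.29 and 4.19 against -0.24, -0.24 and 0.29 (-4.34 ± 0.34, SE, limma adjusted p = 2.1e-11). Zeb2, a zinc finger factor of terminal effector cells, read 3.64, 3.54 and 2.91 against -0.24, -1.19 and -1.07 (-4.19 ± 0.60). Tox2 (-3.04 ± 0.40) and Tox (-1.45 ± 0.30), nuclear factors of exhausted cells, fell with Ikzf2 (-2.65 ± 0.26). Eomes, a T-box factor of memory and exhausted CD8 cells, rose from 4.40, 4.26 and 4.09 to 5.16, 6.02 and 5.22 (1.22 ± 0.26, limma adjusted p = 0.000597), while its relative Tbx21 was not called (0.07 ± 0.32). In each of these genes but Tbx21 the 3 arrays of each label stayed apart.

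Of 17 factors of quiescent lymphocytes, 8 were higher in labelled tumor and 1, Bcl6, lower (52.9% called, beside 26.4% of all genes). Their median was 0.69. Klf3, a Kruppel-like repressor, read 0.45, 0.08 and 0.00 against 5.13, 5.94 and 5.19 (5.24 ± 0.33, SE, limma adjusted p = 1.5e-13). Klf2, which drives expression of S1pr1, read 3.82, 4.21 and 3.57 against 5.63, 7.10 and 6.14 (2.43 ± 0.34, limma adjusted p = 1.1e-06). The lowest labelled tumor array lay above the highest labelled spleen array in both. The POU factor Pou6f1 rose by 3.86 ± 0.34 and the Notch-induced gene Nrarp by 2.27 ± 0.39. The count of rises was 13 after quantile normalization and after cyclic loess, 4 without array 2 labelled tumor or array 3 labelled spleen, 5 without array 1 or 2 labelled spleen, and 4 on the 6 arrays alone. The fall of Bcl6 (-1.06 ± 0.35, limma adjusted p = 0.0228) was lost without array 1 or 2 labelled spleen or array 1 or 3 labelled tumor (up to 0.096).

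The list of receptors that keep lymphocytes circulating or alive, which also held the channel Aqp9, gave 10 rises and 0 falls among 15 measured. Its median was 1.92 and 66.7% were called, beside 26.4% of all genes. The members were chosen with earlier results of these data known. S1pr1, the sphingosine phosphate receptor for exit from lymphoid organs, read 0.35, 0.16 and 0.19 against 3.32, 4.43 and 3.77 (3.61 ± 0.49, SE, limma adjusted p = 6.55e-07). Il7r, the alpha chain of the interleukin 7 receptor, read 4.68, 4.59 and 4.14 against 6.13, 7.03 and 6.00 (1.92 ± 0.27, limma adjusted p = 1.5e-06), and Il6ra, the interleukin 6 receptor, read -0.06, 1.04 and 0.15 against 4.90, 5.59 and 4.75 (4.70 ± 0.33). Labels did not overlap in these 3 receptors. Aqp9, a glycerol channel, rose by 5.19 ± 0.34 (4.33 with the floor), Treml2, a receptor of the TREM family, by 3.96 ± 0.31, and Cnr2, a cannabinoid receptor of lymphocytes, by 3.20 ± 0.30. Ccr7, the chemokine receptor for lymph nodes, was not called (-0.03 ± 0.31), and overlapped between labels.

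Receptors of tissue residency and inflamed sites gave 7 falls and 3 rises among 14 (71.4% called, beside 26.4% of all genes). Their median was -1.08. Rgs16, a brake on chemokine receptor signalling, read 5.93, 6.27 and 5.35 against -0.45, 0.16 and 0.25 (-5.87 ± 0.30, SE, limma adjusted p = 7.78e-16). Cxcr6, a chemokine receptor of resident cells, read 5.18, 4.94 and 4.77 against 0.89, 0.25 and 0.39 (-4.45 ± 0.42). All labelled spleen arrays were above all labelled tumor arrays in both genes. The rises included residency genes. Itgae, which encodes the integrin CD103, read 0.00, 1.06 and 0.17 against 2.09, 2.94 and 2.08 (1.96 ± 0.41, limma adjusted p = 0.00044). Cd69, which retains cells in tissue, rose by 1.20 ± 0.32 (limma adjusted p = 0.00473) and lost its call without array 2 labelled tumor (0.056). S1pr5, a receptor for exit from tissue, rose by 1.52 ± 0.36, and was not called after quantile normalization (0.0845) or with the floor at -1.38 (0.352, both limma adjusted p).

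Immediate early genes are the first wave of transcripts induced by receptor signals. Of 19, 8 rose and 1 fell (47.4% called, beside 26.4% of all genes), with a median of 1.10. Fos read 5.61, 5.82 and 5.69 against 7.40, 7.99 and 6.86 (1.71 ± 0.28, SE, limma adjusted p = 1.44e-05) and its relative Fosb read 3.81, 3.82 and 4.09 against 5.91, 6.72 and 5.73 (2.21 ± 0.30). Labelled tumor arrays were above labelled spleen arrays throughout in both. Jun rose by 2.20 ± 0.42 and Ier2 by 1.85 ± 0.34, whereas Ier3, a stress-induced survival gene, read 5.91, 5.97 and 5.40 against 2.47, 3.00 and 1.80 (-3.34 ± 0.34). The 8 rises became 14 after quantile normalization, 15 after cyclic loess, and 5 without array 2 labelled tumor or array 3 labelled spleen. Transducers of the T cell receptor gave 6 rises and 1 fall among 16 (43.8% called, beside 26.4% of all genes). Rises numbered 11 after quantile normalization and after cyclic loess, 4 without array 2 labelled tumor and 2 on the 6 arrays alone. The adaptor Pag1 rose by 2.05 ± 0.25, and the adaptor Grap2 by 1.26 ± 0.31. The fall was that of Sh2d2a, an adaptor of Lck (-0.84 ± 0.30, limma adjusted p = 0.0391), and was lost without any 1 of 5 arrays (up to 0.252) and with the replicate block (0.076).

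Cell division genes fell together. All 20 measured mitosis genes were lower in labelled tumor, with a median of -3.43, and 18 of 20 replication genes, with a median of -2.12. Of all genes, 15.9% were lower. Promoters of 4 mitosis genes are shown because CCAAT boxes were frequent in the list, with capitals at CCAAT or its complement ATTGG in the 120 bases before the start (RefSeq, GRCm38.p6, written 5′ to 3′ along the gene).
Bub1, chr2:127831860-127831979, minus strand: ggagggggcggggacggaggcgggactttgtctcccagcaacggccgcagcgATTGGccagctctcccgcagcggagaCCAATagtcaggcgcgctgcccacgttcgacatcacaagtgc
Kif11, chr19:37376262-37376381, plus strand: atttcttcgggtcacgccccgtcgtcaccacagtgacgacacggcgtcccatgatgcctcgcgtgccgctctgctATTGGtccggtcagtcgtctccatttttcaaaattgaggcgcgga
Ccnb2, chr9:70421555-70421674, minus strand: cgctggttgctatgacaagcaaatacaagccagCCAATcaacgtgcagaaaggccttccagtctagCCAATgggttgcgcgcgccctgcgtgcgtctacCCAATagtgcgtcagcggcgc
Cdk1, chr10:69352913-69353032, minus strand: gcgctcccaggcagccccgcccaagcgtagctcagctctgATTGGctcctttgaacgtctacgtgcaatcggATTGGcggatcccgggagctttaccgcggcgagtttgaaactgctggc
Over 250 bases, CCAAT on either strand was found in 13 of 16 mitosis promoters held (81.25%) and in 11 of 16 replication promoters (68.75%), against 5159 of all 14452 (35.7%). It occurred in 40.3% of the promoters of genes lower in labelled tumor and in 32.9% of those higher. The motif was chosen after these promoters had been read.

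Bub1, a kinase of the spindle checkpoint, read 4.88, 4.86 and 4.67 against 0.18, 0.36 and -0.04 (-4.64 ± 0.36, SE, limma adjusted p = 1.74e-11). Kif11, the motor that separates spindle poles, read 4.66, 4.68 and 4.49 against -0.27, 0.99 and -0.25 (-4.45 ± 0.35). Every labelled spleen array exceeded every labelled tumor array by more than 3 log2 units in both genes. Ccnb2, a mitotic cyclin, read 5.26, 5.19 and 4.63 against -0.05, 1.90 and 0.68, and its kinase Cdk1 read 5.54, 5.75 and 5.65 against 1.30, 3.23 and 1.72. The replication licensing factor Cdc6 (-4.50 ± 0.45) and the helicase subunit genes Cdc45 (-4.25 ± 0.30) and Gins1 (-3.60 ± 0.39) fell. The 2 replication genes not called were Pcna, the sliding clamp (-0.37 ± 0.44), and Mcm4 (-0.60 ± 0.32). Cell cycle inhibitors and p53 targets gave 6 rises and 5 falls of 18 (61.1% called, beside 26.4% of all genes). Their median was 0.33. The falls numbered 2 without array 3 labelled tumor and 3 without array 2 or 3 labelled spleen or array 1 labelled tumor, and there were 4 rises and 3 falls with the replicate block, 9 and 5 after quantile normalization, and 3 and 2 on the 6 arrays alone. Cdkn1a, which encodes the CDK inhibitor p21, fell by 2.77 ± 0.27, while the p53 target Bbc3, a proapoptotic gene, rose by 1.69 ± 0.28 and Gadd45a by 1.68 ± 0.31.

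Metabolic lists leaned the same way as division. Glycolysis and hypoxia genes gave 15 falls and 0 rises among 18 (83.3% called, beside 26.4% of all genes). Their median was -1.11, and 8 fell on the 6 arrays alone. Slc16a3, a lactate exporter, read 5.00, 5.28 and 4.26 against -0.61, 0.26 and -0.87 (-5.25 ± 0.36, SE, limma adjusted p = 8.81e-13). The mitophagy gene Bnip3, a hypoxia target, fell by 3.41 ± 0.24, and Tpi1, a glycolytic isomerase, by 3.29 ± 0.28. Cholesterol synthesis gave 8 falls and 0 rises of 13 (61.5% called). Among them were Idi1 (-2.62 ± 0.30), Cyp51 (-2.40 ± 0.31) and Sqle (-2.19 ± 0.35), enzymes along the sterol pathway. Respiratory chain genes gave 6 falls and 0 rises of 20 (30% called, beside 26.4% of all genes), of which Cyc1 (-1.27 ± 0.28) and Cycs (-1.21 ± 0.25) encode cytochromes. Genes of the amino acid stress response under ATF4 gave 9 falls and 1 rise of 17 (58.8% called). Asns, which makes asparagine, fell by 2.82 ± 0.34 and Mthfd2, a mitochondrial folate enzyme, by 2.00 ± 0.29. The rise in that list, Slc3a2 (0.67 ± 0.25, limma adjusted p = 0.0473), was lost without any labelled spleen array or array 2 labelled tumor (up to 0.333) and with the replicate block (0.127). Endoplasmic reticulum folding genes gave 8 falls and 1 rise of 18 (50% called). Their falls numbered 5 without array 2 labelled spleen or array 1 or 3 labelled tumor and 3 on the 6 arrays alone. The co-chaperone Sdf2l1 fell by 2.17 ± 0.27, and Dnajb9, an unfolded protein response gene, read 4.20, 4.38 and 3.75 against 5.55, 6.61 and 5.57 (1.80 ± 0.33, limma adjusted p = 9.35e-05). Ribosomal protein genes gave 0 calls among 14, with a median of 0.38 beside 0.25 for all genes, 0 calls after quantile normalization and 6 rises after cyclic loess.

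Il2ra, the high-affinity interleukin 2 receptor chain, read 5.53, 4.86 and 4.55 against 1.11, 0.43 and 1.13 (-4.09 ± 0.33, SE, limma adjusted p = 2.69e-11). The list of interleukin 2 receptor and STAT5 targets held 4 rises and 3 falls among 15 (46.7% called, beside 26.4% of all genes). Its falls numbered 6 without array 2 labelled tumor and 5 without array 3 labelled spleen. It held Lif at -3.14 ± 0.35, the feedback inhibitor Socs3 at 2.00 ± 0.34 and the kinase gene Pim2 at 1.46 ± 0.26. Interferon gamma and MHC class I genes gave 1 rise and 4 falls of 21 (23.8% called, beside 26.4% of all genes), and 8 falls without array 2 labelled tumor. Irf8 read 6.04, 5.99 and 5.41 against 1.99, 2.42 and 1.96 (-3.69 ± 0.27), and Irf1, the rise, read 5.04, 5.08 and 4.68 against 6.22, 7.26 and 6.34 (1.68 ± 0.40, limma adjusted p = 0.00179). These interferon regulatory factors therefore moved in opposite directions, each without overlap. Type I interferon genes gave 3 rises and 1 fall of 21, the fall being the RNA sensor Ifih1 (-1.16 ± 0.25), and 2 rises and 4 falls without array 2 labelled tumor. That is 19% called, below the share of all genes. Apoptosis regulators gave 1 rise and 2 falls of 14 (21.4% called), and 4 falls without array 2 labelled tumor. The survival gene Bcl2 rose by 1.26 ± 0.28, and the long noncoding RNA Morrbid fell by 2.04 ± 0.32.

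Markers of other cells moved with these groups, and their part in the differences above was not tested. Macrophage markers were lower in labelled tumor in 15 of 18 and higher in 0 (83.3% called, beside 26.4% of all genes). Their summed level was 239 to 301 in labelled spleen and 74.5 to 136 in labelled tumor. C1qb, a complement subunit made by macrophages, read 5.03, 5.13 and 5.10 against -3.17, -1.12 and -3.87. Dendritic cell and MHC class II markers gave 5 falls of 11 and 0 rises (45.5% called, 127 to 229 against 12.2 to 23). Stroma and endothelium markers gave 4 falls and 1 rise of 12 (41.7% called, 14.5 to 22.3 against 8.98 to 16.9). The stroma falls numbered 1 without array 2 labelled spleen and 2 without array 1 labelled tumor. On arrays 1 and 3 labelled tumor, 11 of the macrophage markers, among them Csf1r, Adgre1 and C1qa, and 8 of the melanocyte markers, among them Dct and Tyr, lay below -1.38. CD4 and NK cell markers gave 1 rise and 2 falls of 8 (254 to 290 against 132 to 263). That is 37.5% called, beside 26.4% of all genes.

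Markers of B cells and of red cell precursors gave rises and no falls. Of 10 B cell markers 8 were higher in labelled tumor and 0 lower (80% called, beside 26.4% of all genes). Their summed level was 21.3 to 29.1 in labelled spleen and 46.1 to 103 in labelled tumor. Without array 2 labelled tumor 3 of 10 rose, without array 1 labelled spleen 5, and after quantile normalization, after cyclic loess or with the floor 4. Cd22, a B cell lectin, read 1.03, 1.24 and -0.15 against 2.02, 2.48 and 2.08 (1.49 ± 0.31, SE, limma adjusted p = 0.000394). Jchain, which joins secreted antibodies, read -0.99, -0.11 and -0.28 against 3.75, 4.22 and 1.19 (3.51 ± 0.81). The immunoglobulin light chain gene Igk read 0.90, -0.11 and 1.15 against 6.24, 6.66 and 2.87 (4.61 ± 1.07), and probes for such segments can share signal. Arrays 1 and 2 labelled tumor were above array 3 in both. The erythroid list gave 4 rises and 0 falls among 8 (50% called). Its summed level ran from 101 to 122 in labelled spleen and from 80.2 to 296 in labelled tumor, so the labels overlapped. Of its 8 genes, 6 lay below -1.38 on all labelled spleen arrays. Hba-a1 and Alas2 also lay below it on arrays 1 and 3 labelled tumor. Car1, the carbonic anhydrase of red cells, read -2.88, -2.79 and -2.83 against 3.08, 4.99 and 2.59, and rose by 6.38 ± 0.89 (limma adjusted p = 1.12e-06). Its labelled spleen values lay below -1.38 throughout, and with the floor at -1.38 the rise was 4.94. Slc4a1, the anion exchanger of the red cell membrane, read -2.65, -2.66 and -2.38 against 0.11, 5.31 and 0.89 (4.67 ± 1.15, limma adjusted p = 0.00234, and 3.49 with the floor). Array 2 labelled tumor was far above its group in Slc4a1, and the call was lost when it was left out and the arrays were quantile normalized (0.0855). The 3 called neutrophil markers, Mpo, Camp and Ngp, of 9 measured (33.3%, beside 26.4% of all genes), each lost their call without at least 1 array.

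The other named rises and falls were of genes outside these lists. Dtx1, a Notch pathway ubiquitin ligase, read -2.02, -0.36 and -2.38 against 3.45, 4.03 and 3.46 (5.24 ± 0.47, SE, limma adjusted p = 2.58e-10). Tmem86b, which encodes a lysoplasmalogenase, read -1.67, -1.46 and -1.69 against 3.32, 4.44 and 3.54 (5.38 ± 0.50), and Cd163l1, a scavenger receptor, ran from -1.06 to -0.76 against 3.36 to 3.62 (4.42 ± 0.30). These 3 genes were low on every labelled spleen array and high on every labelled tumor array. Tdrp (4.49 ± 0.28) and the calcium channel subunit Cacna2d4 (4.39 ± 0.35) rose too. Falls included Nrgn, a calmodulin-binding protein (-6.84 ± 0.32), and Cxcl2, a neutrophil chemokine (-6.74 ± 0.65). Lyz1, a lysozyme, fell by 6.79 on the log2 scale by its main probe set, and another of its probe sets had the opposite sign without being called.

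Most genes called with the Egr2 hairpin were called the same way in each other transduction. LacZ gave 4589 calls (25.2%), the Ppp2r2d hairpin 4107 (22.6%), Ptpn2 8956 (49.2%), Arhgap5 5878 (32.3%) and Alk 9683 (53.2%). Genes called the same way numbered 3101 with LacZ, which is 64.6% of the calls of the Egr2 hairpin and 67.6% of those of LacZ, and 4024 with Alk, 83.8 and 41.6% of the respective calls. For Ptpn2 they numbered 3735 (77.8 and 41.7%), for Arhgap5 3580 (74.6 and 60.9%) and for Ppp2r2d 3089 (64.3 and 75.2%). Genes called in opposite directions were 21 with LacZ and 1 to 4 with each of the others. Across genes, which are not independent replicates, the differences correlated at 0.75 with LacZ and 0.83 to 0.89 with the other hairpins. Of the 4801 genes, 2141 (44.6%) were called the same way in all 5 other transductions, 434 up and 1707 down. Another 229 (4.77%) were called the same way in 0 others, 204 of them up and 25 down, which by itself is no test of a difference.

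The difference itself was tested as an interaction. Between the Egr2 hairpin and LacZ, 0 of 18193 genes (0%) had a different tissue effect at a limma adjusted p under 0.05, with 3370 at an unadjusted p under 0.05 and a smallest adjusted p of 0.1. The count was 15 after quantile normalization, 2 after cyclic loess and 590 without array 2 of LacZ labelled tumor. Between the Egr2 hairpin and the mean of the Ppp2r2d, Ptpn2, Arhgap5 and Alk hairpins, 0 genes (0%) were called, with 732 at an unadjusted p under 0.05 and a smallest adjusted p of 0.0859. The count was 43 after quantile normalization, 31 after cyclic loess and 46 with the floor at -1.38. The Egr2 gene itself differed by 1.65 ± 0.61 (unadjusted p = 0.0111, adjusted p = 0.841, limma), with its tissue difference at -0.05 against a mean of -1.70 with the 4 other hairpins. That mean includes -2.55 with Ptpn2, whose arrays labelled tumor spread from 0.36 to 3.79. The labelled spleen values of Egr2 with its own hairpin ran from 3.89 to 4.08. They were below every array labelled spleen of the other 5 transductions, the lowest of which was 4.40.

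**Figure D4:**
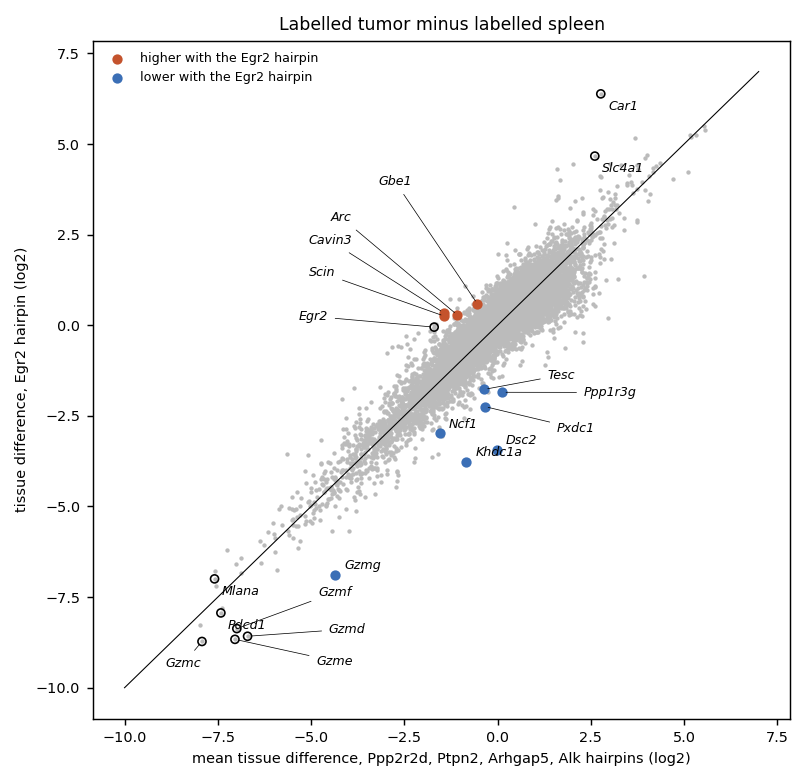
Each grey point is 1 of 18193 genes, with the mean tissue difference of the 4 other hairpins on the horizontal axis and that of the Egr2 hairpin on the vertical axis, both labelled tumor minus labelled spleen in log2, and the line marks equality. Coloured points are the 11 genes called under each of 3 other treatments of the values, and circles mark genes named in the text. Gzmg and Dsc2 lie below the line at -6.89 and -3.43.

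The 11 genes called under all 3 of quantile normalization, cyclic loess and the floor (0.0605% of genes) were chosen after their values were seen, and none passed in the fit of the deposited values. Of these, 7 had a lower and 4 a higher tissue difference with the Egr2 hairpin. Dsc2, which encodes the junction protein desmocollin 2, ran from 1.52 to 1.75 in labelled spleen and from -3.24 to -1.003 in labelled tumor, while no other group had an array above 0.06. Its tissue difference was -3.43 against -0.01 for the 4 other hairpins and -2.01 for LacZ (-3.42 ± 0.68, SE, limma adjusted p = 0.0859). So Dsc2 was high on the 3 labelled spleen arrays of the Egr2 hairpin and on no others. Gzmg ran from 4.05 to 4.88 in labelled spleen, against 0.66 to 2.12 with Ppp2r2d, -0.04 to 1.23 with Ptpn2, 2.89 to 3.27 with Arhgap5, 1.77 to 2.34 with Alk and 3.38 to 4.27 with LacZ. Its difference from the 4 hairpins was -2.54 ± 0.52 (limma adjusted p = 0.0986), and its labelled spleen range overlapped that of LacZ alone. The tissue difference of Gzmg was -6.89 with the Egr2 hairpin and -6.65 with LacZ. Its paralogs Gzmd, Gzme and Gzmf differed by -1.88, -1.62 and -1.38 (limma adjusted p 0.596, 0.694 and 0.649), and were called with the floor and after quantile normalization but not after cyclic loess. With LacZ these 3 genes fell further than with the Egr2 hairpin (-8.95, -9.32 and -9.57), and Gzmf fell further with Arhgap5 (-8.75).

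**Figure D5:**
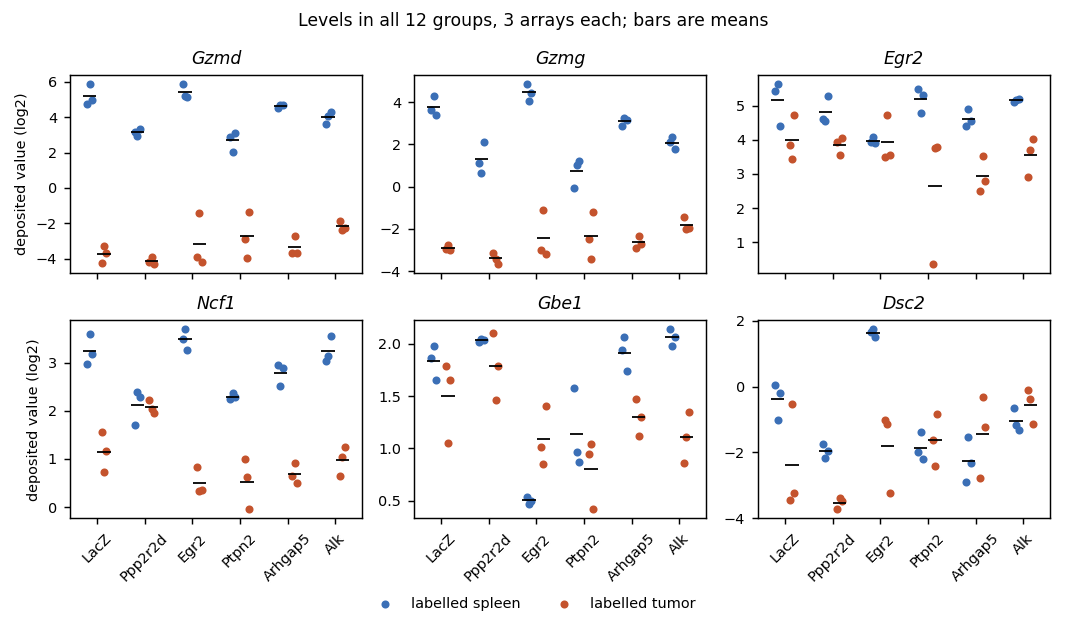
Deposited log2 values of Gzmd, Gzmg, Egr2, Ncf1, Gbe1 and Dsc2 in the 6 transductions, with labelled spleen and labelled tumor in separate colours, 3 arrays as points and the mean as a bar. Dsc2 is above 1.5 only in labelled spleen with the Egr2 hairpin, and Egr2 in labelled spleen is lowest with its own hairpin.

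Pxdc1 (-2.24 against -0.35 for the mean of the 4 hairpins), Ppp1r3g (-1.85 against 0.13), a glycogen-targeting subunit of protein phosphatase 1, Tesc (-1.77 against -0.36), a calcium-binding protein, and Ncf1 (-2.97 against -1.55), a subunit of the phagocyte NADPH oxidase, were also lower. Khdc1a, at -3.77 against -0.83, was lower still with the Arhgap5 hairpin, at -4.96. With the floor at -1.38 the differences from the 4 hairpins shrank. They went from -2.934 to -1.545 in Khdc1a and from -1.98 to -0.795 in Ppp1r3g. With LacZ the tissue difference was -1.83 in Pxdc1, -0.88 in Ppp1r3g, -0.59 in Tesc, -2.10 in Ncf1 and -1.86 in Khdc1a. Among the 4 hairpins, Ncf1 differed by -0.05 with Ppp2r2d, -1.77 with Ptpn2, -2.09 with Arhgap5 and -2.26 with Alk. In labelled spleen Ncf1 ran from 3.26 to 3.70 with the Egr2 hairpin, which overlapped LacZ (2.97 to 3.59) and Alk (3.03 to 3.54). The 4 higher genes were Gbe1, the glycogen branching enzyme (0.59 against -0.54), the synaptic gene Arc (0.28 against -1.08), the actin-severing Scin (0.25 against -1.43) and the caveolar coat gene Cavin3 (0.34 against -1.44). Some single transductions were above the Egr2 hairpin in these genes, namely LacZ in Arc (0.33), Ptpn2 in Scin (1.03) and Alk in Cavin3 (0.45). With the Egr2 hairpin, Scin ran from -3.29 to -2.52 in labelled spleen and from -3.24 to -1.28 in labelled tumor. Cavin3 ran from -2.11 to -1.87 and from -2.33 to -0.91. All labelled spleen values of both lay below -1.38. Their negative means over the 4 hairpins came mainly from Ppp2r2d (-4.17 in Scin, -3.08 in Cavin3) and Arhgap5 (-2.47 and -2.73). Ptpn2 gave -0.41 in Cavin3, and Alk -0.10 in Scin. Gbe1 ran from 0.47 to 0.54 in labelled spleen with the Egr2 hairpin, below the range of every other labelled spleen group, the lowest of which started at 0.87 with Ptpn2. In Gbe1, as in Dsc2, the arrays that set the Egr2 hairpin apart were those labelled spleen.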

How the data were processed

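The authors deposited log2 values per probe set of 36 single-channel arrays. The submitters' processing notes name RMA (version and settings: not given in the sources used here) and no other step. The log2 scale was read from the range of the deposited values, and their centring is unknown. Detection calls were not used here, so no probe set is called absent. Of 45101 probe sets, 64 were controls, 34945 had a single gene symbol, 932 had several and 9160 had no gene in the annotation given. Where sets shared a gene, as in 9010 cases, the brightest on average was kept. This left 18193 genes, of which the reference (GRCm38.p6) names 18145.

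Groups came from the labels. Limma (3.58.1, R 4.3.3) fitted 12 group means to all 36 arrays (24 residual and 6.75 prior degrees of freedom), and Benjamini-Hochberg adjustment ran over 18193 genes, with a threshold of 0.05. Differences were tested as interactions. Tables and figures were made with data.table (version 1.17.8), Python 3.11.15, pandas 2.3.3, numpy 2.4.6 and matplotlib 3.10.9.

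The 34 gene lists and their members (505 of 555 genes measured) were chosen with earlier results of these data known. Named genes were the 15 largest called rises and falls whose arrays did not overlap, up to 5 called genes per list, the members of the target's family, and genes that stand against their list. Left unnamed were predicted genes and cDNA clones lacking an established symbol, among them 1 of the largest rises. Adgre1, C1qa, Cdk1, Csf2, Gzmb, Gzmk, Ifng, Il7r, Prf1, Serpinb9, Tox, Tyr and the genes of the interaction fall outside this rule and were chosen after their values were seen. In data simulated for this comparison over 18193 genes, 0, 11, 32 and 50 of 50 changes of 0.5, 1, 2 and 4 log2 units were recovered, with 2 false calls. The simulated noise was normal, independent between genes and arrays, and had 1 spread per gene for all groups. It held no array like array 2 labelled tumor, so these counts are not error rates of the real arrays. Alternatives were quantile normalization, cyclic loess, a floor at the highest array minimum (-1.38), means over probe sets, a filter on dim genes, array weights, a trend in the prior variance, a replicate block, the compared arrays alone, and arrays left out. Promoters came from RefSeq for 14452 of the 18193 genes. The precision is limited by 3 arrays per group.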

Additional observations from a re-analysis of the deposited data

How the results depend on the processing

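Under the alternatives, the count of genes called with the Egr2 hairpin stayed within 1.5 times of 4801 except for 2840 in a fit of the 6 arrays alone and 7496 with array weights, a fit that did not converge. It was 4287 with the replicate block and 3811 to 4629 without 1 of the 6 arrays of the Egr2 hairpin. Same-numbered arrays of the Egr2 hairpin did not deviate together (residual correlations -0.12 to 0.01), so the numbers were not taken to pair them. For the difference from LacZ, 0 calls became 6 as means over probe sets, 2 after cyclic loess, 15 after quantile normalization, 32 with the floor, 1351 with array weights and 13 without Ptpn2 array 1 labelled tumor. The count was 6 after quantile normalization without array 2 labelled tumor and 13 after it with the filter on dim genes, 2 settings chosen after seeing the data. Without 1 array it was 0 to 590, with 590 without array 2 of LacZ labelled tumor, 87 and 38 without arrays 3 and 1 of LacZ labelled spleen and 26 without array 3 of the Egr2 hairpin labelled tumor. For the difference from the 4 other hairpins, 0 became 3 as means over probe sets, 31 after cyclic loess, 43 after quantile normalization, 46 with the floor, 4 on the compared arrays alone, 1501 with array weights and 5 with a trend in the prior variance. It was 21 and 47 in the 2 settings chosen later, and 0 to 10 without 1 array, with 10 without array 2 labelled tumor and 2 without Ptpn2 array 2 labelled tumor. The cause of these moves was not tested. The Egr2 transcript against LacZ in labelled spleen passed with array weights (-1.30, adjusted p = 0.0441, limma) and with the other probe set (-1.43, adjusted p = 0.0219, limma). In labelled tumor it was -1.08 with array weights (adjusted p = 0.0114, limma) and turned positive as a mean over probe sets (0.0039) and with the other probe set (0.093). Without 1 array it ran from -0.49 to 0.27. Of the 179 genes named by rule, none changed sign where it was called, and 25 lost their call without 1 array. In the fit of the 6 arrays alone, 26 lost their call. Values near the lowest of an array carry little signal over background, and differences that end there depend on how low values were treated.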
